A study of Mus musculus with 8 samples.

Results

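The cell cycle and proliferation genes described here are Mki67, Top2a, Ccnb1, Ccnb2, Cdk1, Mcm2, Mcm5, Pcna, Ccnd1 and Cdkn1a. They were chosen by name, without use of their values but with earlier results of these data known. Of the 10, 10 were present among the 21434 genes of the deposited table. The table came from bulk RNA-seq of pancreatic tissue from 4 Bach2KO and 4 Bach2WT mice, with 2 females (mice 1 and 2) and 2 males (mice 3 and 4) in each group. All mice were untreated, were 18 weeks old and belonged to the strain C57BL/6N-Bach2tm1b(EUCOMM)Wtsi/leg. The Bach2WT mice carried the intact Bach2 gene. The Bach2KO mice lacked the transcriptional repressor Bach2 in every cell of the body, so that a difference in the pancreas need not begin there, and the study reports a lung disease in mice of this genotype. The study kept colonies at more than 1 site, and the labels do not give the site of a mouse. In bulk tissue, fewer cells of a type and less RNA per cell cannot be told apart. The comparison between the genotypes addressed whether the loss of Bach2 goes along with a different expression of the cell cycle machinery in the pancreas.

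A dividing cell passes through G1, DNA synthesis, G2 and mitosis. D-type cyclins such as cyclin D1 (Ccnd1) bind kinases that phosphorylate the retinoblastoma protein, which frees E2F factors to switch on genes of DNA synthesis, among them the helicase subunits Mcm2 and Mcm5 and the sliding clamp Pcna. Later, MuvB complexes and the factors FOXM1, B-MYB and NF-Y act on the genes of mitosis, and cyclin B bound to Cdk1 drives entry into it. Cdkn1a encodes p21, a target of p53 that inhibits cyclin-dependent kinases and halts the cycle. The adult exocrine pancreas is known for slow cell turnover, so that transcripts of dividing cells are rare in it.

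The 5 mitotic genes are known for promoters with CCAAT boxes, which NF-Y binds, and cell cycle homology (CHR) elements, which MuvB complexes bind. Their RefSeq promoters (build GRCm38.p6, 200 bases before to 15 bases after the start site, 5′ to 3′ along the gene) are shown because CCAAT boxes recur in all 5, with matches to the searched letters on either strand in capitals. The searched letters were TTTGAA or TTCGAA for CHR, CCAAT, and TTTGGCGC, TTTCCCGC, TTTGCCGC or TTTCGCGC for E2F.
Ccnb1, chr13:100786472-100786686, minus strand: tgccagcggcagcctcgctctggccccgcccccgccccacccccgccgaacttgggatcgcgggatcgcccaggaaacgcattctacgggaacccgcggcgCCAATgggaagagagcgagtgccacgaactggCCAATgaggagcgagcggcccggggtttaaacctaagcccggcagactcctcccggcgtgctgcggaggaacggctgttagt
Ccnb2, chr9:70421540-70421754, minus strand: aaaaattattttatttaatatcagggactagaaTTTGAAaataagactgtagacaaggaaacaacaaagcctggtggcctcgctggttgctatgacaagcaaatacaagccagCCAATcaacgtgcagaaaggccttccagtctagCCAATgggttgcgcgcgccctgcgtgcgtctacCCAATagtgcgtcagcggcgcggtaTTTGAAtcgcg
Cdk1, chr10:69352898-69353112, minus strand: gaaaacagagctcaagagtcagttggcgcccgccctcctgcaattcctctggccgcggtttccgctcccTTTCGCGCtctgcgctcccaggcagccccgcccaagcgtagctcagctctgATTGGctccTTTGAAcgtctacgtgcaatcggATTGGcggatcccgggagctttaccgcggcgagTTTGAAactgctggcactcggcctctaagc
Mki67, chr7:135716365-135716579, minus strand: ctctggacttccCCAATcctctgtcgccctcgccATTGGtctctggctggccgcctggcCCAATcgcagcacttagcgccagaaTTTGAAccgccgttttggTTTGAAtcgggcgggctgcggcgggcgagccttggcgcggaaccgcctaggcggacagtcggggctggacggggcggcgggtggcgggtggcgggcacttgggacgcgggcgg
Top2a, chr11:99024175-99024389, minus strand: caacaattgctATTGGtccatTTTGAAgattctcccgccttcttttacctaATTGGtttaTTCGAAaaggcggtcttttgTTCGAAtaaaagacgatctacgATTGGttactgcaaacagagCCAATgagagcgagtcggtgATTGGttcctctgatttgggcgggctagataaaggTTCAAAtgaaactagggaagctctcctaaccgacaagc

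Matches were counted in the full promoters of the table, which run from 250 bases before to 50 bases after the start site. 9 of 10 members matched a promoter of the table, and Ccnd1 is the one without an entry. Each of the 5 mitotic genes held a CCAAT box, with 6 in Top2a, 3 each in Mki67, Ccnb2 and Cdk1, and 2 in Ccnb1. In Ccnb2 the CCAAT boxes began at positions -87, -54 and -21 relative to the start site, and a CHR match began at 5. CHR matches numbered 4 in Top2a, 2 each in Mki67, Ccnb2 and Cdk1, and 0 in Ccnb1. Only TTTGAA and TTCGAA were searched for CHR, so that the 0 in Ccnb1 does not cover other forms of the element. E2F matches numbered 1 in Cdk1 and 2 in Mcm5, where both lie on opposite strands and overlap. Mcm2 held 1 CCAAT box and 1 CHR match, Mcm5 held 3 CCAAT boxes, and Pcna held 1. In all 32851 promoters of the table, 37.4% held a CCAAT box, 19.2% a CHR match and 2.26% an E2F match. A match is a run of letters and not a measured binding site.

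Cdkn1a had 2 promoters in the table, and neither held any of these letters. The upstream one is shown because it holds a pair of CATG cores in the spacing of a p53 site, CATGNNNNNNCATG, which was searched for after the values of Cdkn1a had been seen.
Cdkn1a, chr17:29090779-29090993, plus strand: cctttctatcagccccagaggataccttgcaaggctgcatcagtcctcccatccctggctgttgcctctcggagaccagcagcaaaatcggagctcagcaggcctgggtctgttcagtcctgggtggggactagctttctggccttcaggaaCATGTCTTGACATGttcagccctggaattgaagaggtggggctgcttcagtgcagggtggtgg
The match began at position -48 of that start site, and 0.712% of all promoters in the table held one.

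The libraries held between 72299745 (Bach2KO mouse 3) and 172029360 (Bach2WT mouse 3) counts. A list of 31 digestive enzyme genes took between 80.5% and 83.4% of them, so that other genes were sampled at a small share of the depth. Counts were tested with edgeR's quasi-likelihood test, and levels are given as CPM, counts scaled to a common library size and corrected for library composition or, between genes, as FPKM, which also divides by gene length. Of 12820 genes that passed the filter on low counts, 1 was called at a Benjamini-Hochberg adjusted p under 0.05 (0.0078%), the eosinophil ribonuclease gene Rnase2a. Unadjusted p-values under 0.05 were found for 3.9% of genes in the direction of higher levels in Bach2KO mice and for 3.56% in the direction of lower levels. The libraries of both genotypes did not overlap for 4.49% of genes. The Bach2 gene itself was counted 16, 3, 12 and 14 times in the Bach2KO mice and 4, 4, 31 and 6 times in the Bach2WT mice, so that its gene-level count does not check the labels of the mice. Reads outside the deleted part can still be counted, and the part of the gene they came from was not analysed here.

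None of the 10 genes separated the genotypes. 0 of 10 had libraries that did not overlap, and of the 8 that passed the filter on low counts, 0 were called at an adjusted p under 0.05 by edgeR or DESeq2. Only Cdkn1a had an unadjusted p under 0.05 among these 8 genes, and that value rested on a single Bach2KO mouse. Ccnb1 and Ccnb2 had too few counts for the fit.

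The genes fell into a sparse and a better covered class. In FPKM, the median over the Bach2WT mice was 0.603 for Cdkn1a, 0.428 for Pcna, 0.340 for Ccnd1, 0.278 for Mcm2 and 0.242 for Mcm5, against 0.0187 for Mki67, 0.0145 for Ccnb1, 0.0142 for Ccnb2, 0.0120 for Top2a and 0.0084 for Cdk1. In Bach2WT mice the lowest value of the first class (Mcm5, 0.141 FPKM) was above the highest value of the second (Ccnb2, 0.0676 FPKM), whereas neighbours within each class overlapped. The counts of the 5 mitotic genes together were 46, 60, 49 and 75 in Bach2KO mice 1 to 4 and 44, 62, 60 and 70 in Bach2WT mice 1 to 4. At most 75 counts in a library thus came from these 5 genes. Their summed level was 0.0459, 0.0821, 0.0725 and 0.0788 FPKM in Bach2KO mice and 0.0899, 0.0641, 0.122 and 0.111 FPKM in Bach2WT mice, ranges that overlapped.

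**Figure D1:**
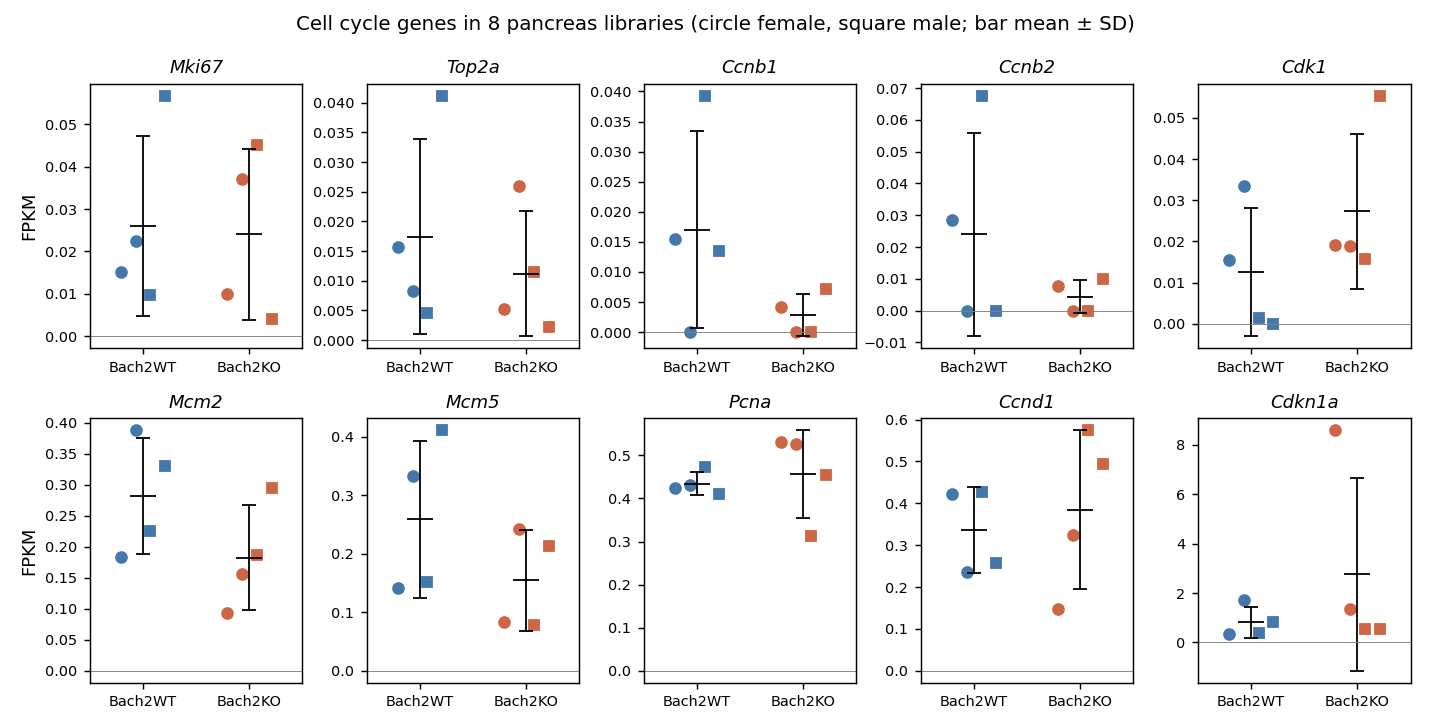
Level in FPKM (vertical axes, linear, a separate scale per gene) of the 10 genes in each of 4 Bach2WT and 4 Bach2KO mice; circles are females, squares are males, and bars give the mean ± SD. The genotypes overlap in every panel, and Bach2KO mouse 1 lies apart for Cdkn1a at 8.59 FPKM.

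Mki67 encodes Ki-67, which coats mitotic chromosomes and marks cycling cells (chromosome 7, 135291513 to 135318090 in GRCm39, the build of the deposited table). Its CPM was 0.105, 0.386, 0.462 and 0.0415 in Bach2KO mice 1 to 4 and 0.155, 0.229, 0.0975 and 0.576 in Bach2WT mice 1 to 4. The highest library was Bach2WT mouse 4 and the lowest Bach2KO mouse 4, both male, and the range within a genotype exceeded the difference between the means of 0.249 ± 0.207 and 0.264 ± 0.215 CPM (SD, n = 4 each). The log2 fold change, Bach2KO against Bach2WT, was -0.10 with a standard error of 0.83 (95% interval -1.89 to 1.69, edgeR adjusted p = 0.991).

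Top2a encodes the topoisomerase that untangles sister chromatids (chromosome 11, 98883769 to 98915015). It was counted 8, 20, 8 and 4 times in the Bach2KO mice and 13, 10, 6 and 26 times in the Bach2WT mice, or 0.104 ± 0.098 and 0.159 ± 0.150 CPM (SD, n = 4 each). Its order followed that of Mki67 at both ends, with Bach2WT mouse 4 highest and Bach2KO mouse 4 lowest, and the log2 CPM of the pair had a Pearson r of 0.88 over the 8 libraries. This and the other correlations given are descriptions over points that share their libraries and scaling. The log2 fold change of Top2a was -0.62 (standard error 0.980, 95% interval -2.73 to 1.5, edgeR adjusted p = 0.940). Bach2WT mouse 4 and Bach2KO mouse 3, which had the highest Mki67, also had the highest summed levels of 10 islet cell markers, at 2320 and 2030 CPM against 185 to 646 CPM in the other 6 libraries. The part of islet content in these values was not tested.

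Ccnb1 and Ccnb2 encode the B-type cyclins that activate Cdk1 (chromosome 13, 100915158 to 100923078, and chromosome 9, 70314974 to 70328829). Ccnb1 was counted 3, 0, 0 and 6 times in Bach2KO mice 1 to 4 and 6, 0, 24 and 4 times in Bach2WT mice 1 to 4. Ccnb2 was counted 2, 0, 0 and 3 times in Bach2KO mice and 4, 0, 15 and 0 times in Bach2WT mice. Most of the reads of both genes in Bach2WT mice came from mouse 3, a male, and their log2 CPM had an r of 0.83 over the 8 libraries. With Mki67 the r was -0.40 for Ccnb1 and -0.63 for Ccnb2. A count of 0 still allowed up to 0.0362 CPM in Bach2KO mouse 2, 0.0396 CPM in Bach2KO mouse 3, 0.0229 CPM in Bach2WT mouse 2 and 0.0432 CPM in Bach2WT mouse 4, taking 3 counts as the limit. Within this depth, the means were 0.0124 ± 0.0152 and 0.0728 ± 0.0694 CPM for Ccnb1 (SD, n = 4 each, exact two-sided permutation p = 0.143). For Ccnb2 they were 0.00698 ± 0.00816 and 0.0372 ± 0.0495 CPM (SD, n = 4 each, exact two-sided permutation p = 0.429). The smallest p that 4 mice against 4 allow is 0.0286. Without Bach2WT mouse 2, in which both cyclins were at 0, the exact permutation p of Ccnb1 was 0.0286, and without mouse 3 the log2 ratio of its means went from -2.55 to -1.71.

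Cdk1, the kinase of mitotic entry (chromosome 10, 69170976 to 69188768), did not follow its cyclins, with an r of log2 CPM of -0.61 with Ccnb1 and -0.27 with Ccnb2. Its CPM was 0.0989, 0.0966, 0.0793 and 0.280 in Bach2KO mice 1 to 4 and 0.0777, 0.168, 0.00696 and 0 in Bach2WT mice 1 to 4. Bach2KO mouse 4 was highest with 54 of the 84 counts in Bach2KO mice, whereas the males among Bach2WT mice had 1 and 0 counts. The log2 fold change was 1.11 (standard error 1.09, 95% interval -1.23 to 3.45, edgeR adjusted p = 0.884). Single libraries moved it, since the log2 ratio of mean CPM was 0.54 without Bach2KO mouse 4 (exact permutation p = 0.486) and 2.31 without Bach2WT mouse 2 (exact permutation p = 0.0571). The genotype difference in males minus that in females was 5.41 on the log2 scale (standard error 2.15, unadjusted p = 0.0276, edgeR adjusted p = 0.807), so that it did not pass the correction over all genes.

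Mcm2 and Mcm5 are subunits of the helicase that is loaded on origins in G1 and unwinds DNA in S phase (chromosome 6, 88860456 to 88875762, and chromosome 8, 75836197 to 75855067). The CPM of Mcm2 was 0.680, 1.12, 1.32 and 2.10 in Bach2KO mice and 1.30, 2.74, 1.59 and 2.32 in Bach2WT mice. That of Mcm5 was 0.352, 1.00, 0.317 and 0.876 in Bach2KO mice and 0.578, 1.35, 0.613 and 1.66 in Bach2WT mice. For both genes Bach2WT mice 2 and 4 were the 2 highest libraries and Bach2KO mouse 1 was among the lowest, and their log2 CPM had an r of 0.75 over the 8 libraries. The means were 1.31 ± 0.593 and 1.99 ± 0.662 CPM for Mcm2 and 0.637 ± 0.353 and 1.05 ± 0.539 CPM for Mcm5 (SD, n = 4 each). Neither gene passed the test, with log2 fold changes of -0.60 (standard error 0.353, edgeR adjusted p = 0.768) and -0.71 (standard error 0.480, edgeR adjusted p = 0.796). Their 95% intervals were -1.36 to 0.16 and -1.75 to 0.32.

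Pcna, the clamp that holds DNA polymerase on its template (chromosome 2, 132091082 to 132095234), was the steadiest of the 8 tested genes, with 1.76-fold between its highest and lowest library. Its CPM was 1.35, 1.30, 0.766 and 1.11 in Bach2KO mice and 1.04, 1.05, 1.14 and 0.994 in Bach2WT mice. Bach2KO mouse 3 was lowest and Bach2KO mouse 1 highest, so that the Bach2WT mice lay inside the range of the Bach2KO mice. Between the genotypes, the log2 fold change was 0.10 (standard error 0.281, 95% interval -0.51 to 0.71, edgeR adjusted p = 0.969). A Pcna pseudogene, Pcna-ps2, took 27 counts in all libraries together, and Ccnb1-ps and Ccnb2-ps took 9 and 43. Reads that these copies share with the genes may have been divided between them, which for the sparse cyclins is not small against their own 43 and 24 counts.

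Ccnd1 encodes cyclin D1, which couples growth signals to G1 progression (chromosome 7, 144483668 to 144493662). Its CPM was 0.729, 1.58, 2.75 and 2.38 in Bach2KO mice 1 to 4 and 2.03, 1.14, 2.03 and 1.22 in Bach2WT mice 1 to 4. Bach2KO mice held both the highest value (mouse 3) and the lowest (mouse 1), with means of 1.86 ± 0.897 and 1.61 ± 0.494 CPM (SD, n = 4 each). The log2 fold change was 0.21 (standard error 0.375, 95% interval -0.60 to 1.02, edgeR adjusted p = 0.948), and it was -0.05 without Bach2KO mouse 3. Ccnd1 overlaps LTO1 on the other strand, which took 520 counts in all. The labels' protocol covers libraries with and without strand, so that reads of both genes may not have been told apart.

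Cdkn1a, which encodes p21 (chromosome 17, 29309950 to 29319701), was counted 5208, 416, 149 and 371 times in Bach2KO mice 1 to 4 and 114, 810, 193 and 207 times in Bach2WT mice 1 to 4. These were 32.2, 5.02, 1.97 and 1.92 CPM in Bach2KO mice and 1.27, 6.17, 1.34 and 2.98 CPM in Bach2WT mice. Bach2KO mouse 1, a female, was 5.21 times the next highest library, which was a Bach2WT female, and the other 3 Bach2KO mice lay within the Bach2WT range. The means were 10.3 ± 14.7 and 2.94 ± 2.30 CPM (SD, n = 4 each), and the medians 3.50 and 2.16 CPM. The log2 fold change was 1.81 (standard error 0.809, 95% interval 0.06 to 3.55, unadjusted p = 0.0437, edgeR adjusted p = 0.663). Without Bach2KO mouse 1 it was 0.01 (unadjusted p = 0.986, edgeR adjusted p = 0.999). The genotype difference in males minus that in females was -2.45 (standard error 1.09, unadjusted p = 0.0448, edgeR adjusted p = 0.807), with the high library among the 2 females of Bach2KO. For the other 6 genes tested the unadjusted p of this interaction was 0.113 or higher by edgeR, and over all 12820 genes 6.14% had an unadjusted p under 0.05 and 0 passed the adjustment.

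**Figure D2:**
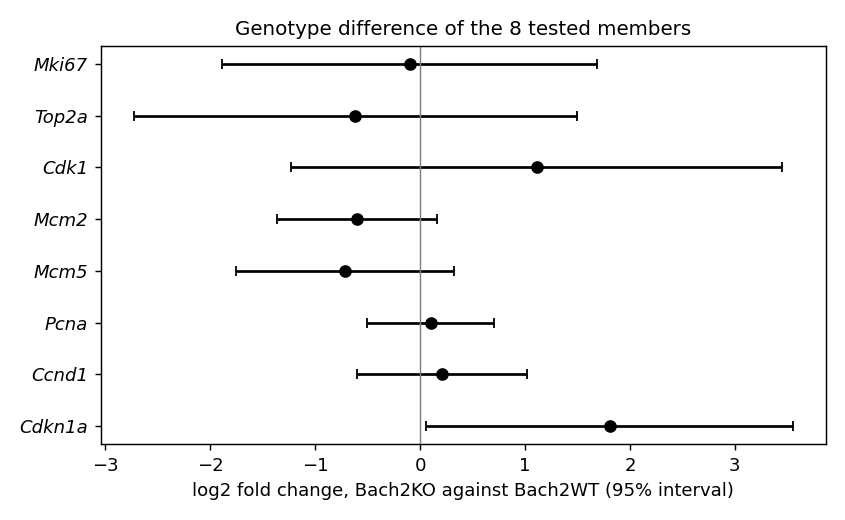
Log2 fold change of Bach2KO against Bach2WT (horizontal axis) for the 8 genes that passed the filter on low counts; points are edgeR estimates and bars are 95% intervals from 4 mice per group. The intervals of 7 genes span 0, and that of Cdkn1a runs from 0.06 to 3.55.

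To place the 10 genes in their pathways, 7 lists of cell cycle genes were read from the same fit, 146 genes in all, of which 145 were in the table and 95 were tested. The lists were drawn up with earlier results of these data known. Of these 95 genes, 56 had a log2 fold change above 0 and 39 below, and 0 were called by edgeR at an adjusted p under 0.05. An unadjusted p under 0.05 by edgeR went with a higher level in Bach2KO mice for 8 and with a lower level for 1. Over all genes tested, such a p was found for 3.9% in the higher and 3.56% in the lower direction. The median log2 fold change of the 95 genes was 0.08, beside 0.05 over all genes tested, of which 54.7% were above 0. Of the 95 genes, 4 did not overlap between the genotypes, all higher in Bach2KO mice, a share near the 4.49% of all tested genes, of which 329 were higher and 246 lower. The 8 and the 4 genes belong to the lists of CDK inhibitors, p53 targets and G1 genes, as follows.

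DNA synthesis genes did not separate the genotypes. Of 23 genes that license and fire origins, 16 were tested, 10 were above and 6 below 0 (median 0.13), and 0 had an unadjusted p under 0.05 by edgeR. Orc4, a subunit of the origin recognition complex, had the smallest p, with a log2 fold change of 0.96 (unadjusted p = 0.0774, edgeR adjusted p = 0.718), followed by Mcm2. Of 28 genes of the replication fork and of nucleotide supply, 24 were tested, 15 were above and 9 below 0 (median 0.09), and again 0 had an unadjusted p under 0.05. Here the primase subunit gene Prim1 (0.73, edgeR adjusted p = 0.852) and the clamp loader gene Rfc2 (-0.25, edgeR adjusted p = 0.863) had the smallest p-values.

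Mitotic genes were mostly too sparse to test. Of 18 mitotic entry kinases and cyclins, 8 were tested, with 6 above and 2 below 0 (median 0.38). The sign of this median was not stable, with -0.47 by DESeq2, -0.43 by edgeR without the filter on low counts and -0.25 without Bach2KO mouse 3. DESeq2 was also run without that filter, so that its median took in sparse genes such as Ccnb1 (-2.47). Cks1b and Cdk1, present in both fits, were at 0.57 and 1.11 by DESeq2. Cks1b, which encodes a small subunit bound to cyclin-dependent kinases (0.58, edgeR adjusted p = 0.801), and Cdk1 had the smallest p-values. Of 35 genes of chromosome condensation, spindle and cytokinesis, 12 were tested, with 3 above and 9 below 0 (median -0.33, and 0.11 without Bach2WT mouse 4). Smc4, a condensin subunit gene, was at -0.81 (edgeR adjusted p = 0.802), and Espl1, the gene of separase, which cuts cohesin at anaphase, at 1.23 (edgeR adjusted p = 0.882). In both lists 0 genes had an unadjusted p under 0.05 by edgeR. Among the genes left out by the filter, the kinase gene Plk1 had 64 counts in all 8 libraries together, Aurkb 29, the cyclin gene Ccna2 26 and Bub1 3, all of them named after their values were seen.

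In the list of G1 cyclins, their kinases, pocket proteins and E2F factors, 19 of 20 genes were in the table and 17 were tested, with 6 above and 11 below 0 (median -0.28). The D-type cyclin gene Ccnd3 was at 6.07, 7.62, 11.2 and 9.26 CPM in Bach2KO mice and 9.94, 15, 11.6 and 15 CPM in Bach2WT mice. Ccnd3 had an estimated fold change of -0.59 on the log2 scale (standard error 0.211, unadjusted p = 0.0146, edgeR adjusted p = 0.593), and the genotypes overlapped. Myc, the gene of a growth-promoting factor, was at 3.83, 1.88, 4.07 and 2.05 CPM in Bach2KO mice and 2.12, 1.78, 2.17 and 1.04 CPM in Bach2WT mice (0.73, unadjusted p = 0.0373, edgeR adjusted p = 0.656). The genotypes overlapped for Myc too. Its log2 fold change was 0.58 without Bach2KO mouse 1 (unadjusted p = 0.104, edgeR adjusted p = 0.911). Without Bach2KO mouse 3 it was 0.52 (unadjusted p = 0.126, edgeR adjusted p = 0.722). Bach2KO mouse 1, the library with the high Cdkn1a, was the lowest of 8 for Ccnd1, Ccnd2 and Ccnd3, and for 6 of the 17 genes of the list. It was the highest for 2 of the 17. Ccnd2 was named after its values were seen, and the share of all tested genes that were lowest in this library was not counted.

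CDK inhibitor genes, which act on the same kinases as p21, were higher in Bach2KO mice in 5 of the 5 that were tested of 7, by the sign of the fold change, with a median of 1.21. 3 of them had an unadjusted p under 0.05, beside 3.9% of all genes tested in that direction, and none passed the adjustment by edgeR. Cdkn2c, which encodes the Cdk4 and Cdk6 inhibitor p18, was at 0.741, 0.592, 0.806 and 0.409 CPM in Bach2KO mice and 0.267, 0.198, 0.292 and 0.346 CPM in Bach2WT mice. Every Bach2KO library lay above every Bach2WT library, with a log2 fold change of 1.21 (standard error 0.433, unadjusted p = 0.0151, edgeR adjusted p = 0.593). Cdkn1c, the gene of p57, was at 0.488, 0.447, 1.47 and 0.601 CPM in Bach2KO mice and 0.222, 0.290, 0.411 and 0.317 CPM in Bach2WT mice. It too did not overlap (1.26, standard error 0.481, unadjusted p = 0.0208, edgeR adjusted p = 0.627). Over all genes tested, 4.49% did not overlap between the genotypes, in either direction. Cdkn1b was at 0.77 (edgeR adjusted p = 0.768) and Cdkn2d at 0.51 (edgeR adjusted p = 0.910), whereas Cdkn2a and Cdkn2b had 36 and 62 counts in all and were not tested. Without Bach2KO mouse 1, which held the high Cdkn1a, 2 of 5 had an unadjusted p under 0.05, Cdkn2c (1.13, unadjusted p = 0.0434, edgeR adjusted p = 0.890) and Cdkn1c (1.42, unadjusted p = 0.0148, edgeR adjusted p = 0.783). Without Bach2KO mouse 3, which held the highest Cdkn1c and the highest summed level of endothelial markers (74.8 CPM against 27.3 to 41.4 CPM), Cdkn1c was at 0.70 (edgeR adjusted p = 0.749) and Cdkn2d at -0.04. The part of endothelial content in Cdkn1c was not tested.

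**Figure D3:**
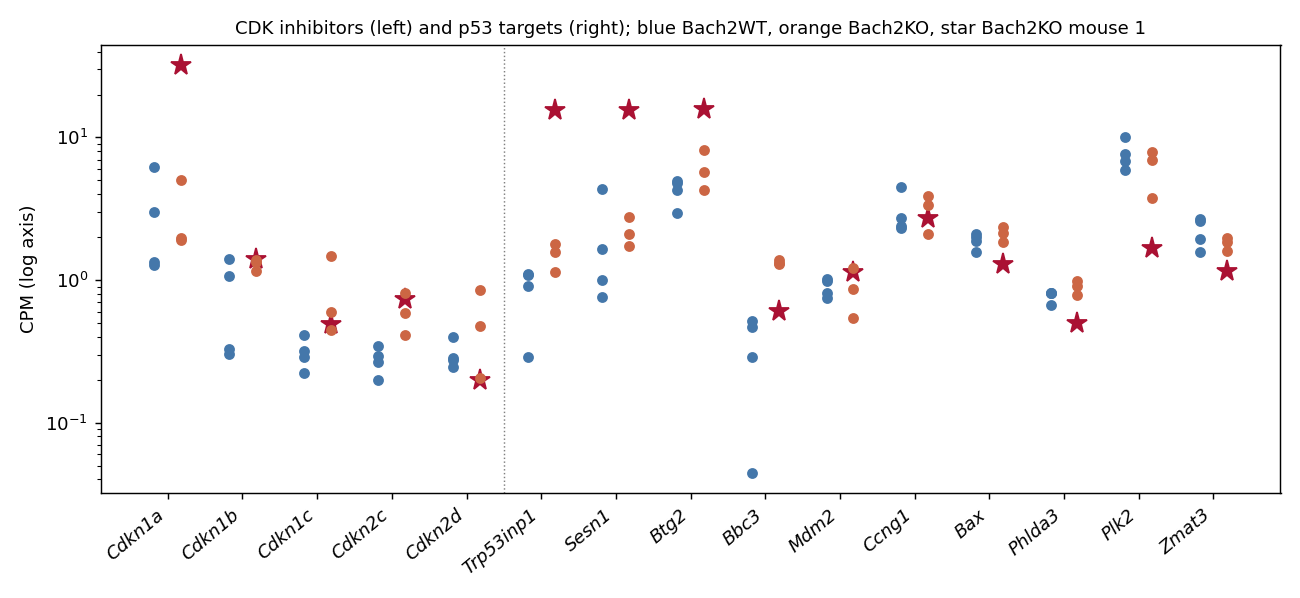
CPM on a log axis of 5 CDK inhibitor genes (left of the dotted line) and 10 p53 target genes (right) in each library; blue points are the 4 Bach2WT mice, orange points 3 Bach2KO mice and the star is Bach2KO mouse 1. The star stands apart for Cdkn1a, Trp53inp1, Sesn1 and Btg2, at 15.5 CPM or more, lies within the range of the others for Mdm2 and Ccng1, and is the lowest point for Bax, Phlda3, Plk2 and Zmat3.

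Of 16 genes in the list of p53 and its targets, which includes Cdkn1a, 14 were tested, with 12 above and 2 below 0 (median 0.33). An unadjusted p under 0.05 by edgeR was found for 5 of them, all higher in Bach2KO mice, beside 3.9% of all genes tested in that direction. Cdkn1a is among these 5 and is also counted among the CDK inhibitors. Trp53inp1, which encodes a stress-induced nuclear protein, was at 15.5, 1.78, 1.57 and 1.13 CPM in Bach2KO mice and 1.10, 0.290, 0.912 and 1.08 CPM in Bach2WT mice. The genotypes did not overlap, although the closest libraries were 1.13 and 1.10 CPM, and the log2 fold change was 2.58 (standard error 0.763, unadjusted p = 0.0048, edgeR adjusted p = 0.513). Bbc3, the gene of the pro-apoptotic protein PUMA, was at 0.605, 1.38, 1.31 and 1.30 CPM in Bach2KO mice and 0.0444, 0.472, 0.515 and 0.288 CPM in Bach2WT mice. It did not overlap either, and here Bach2KO mouse 1 was the lowest of its group (1.77, standard error 0.559, unadjusted p = 0.00733, edgeR adjusted p = 0.531). Btg2 and Sesn1, an antiproliferative and a stress gene, were at 15.9 and 15.6 CPM in Bach2KO mouse 1 and at most 8.15 and 4.33 CPM elsewhere.

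In Bach2KO mouse 1, 5 of the 14 tested p53 genes had their highest level of 8 libraries (Cdkn1a, Trp53inp1, Btg2, Sesn1 and Sesn2) and 4 their lowest (Plk2, Zmat3, Bax and Phlda3). Plk2, the gene of a stress-responsive kinase, was at 1.67 CPM there and at 3.79 CPM or more in the other libraries. Zmat3, Bax and Phlda3 were at 1.16, 1.30 and 0.50 CPM in that library. Mdm2 and Ccng1, which p53 also regulates, lay within the range of the others at 1.14 and 2.72 CPM. The log2 fold changes between the genotypes were -0.58 for Plk2, -0.42 for Zmat3, and 0.08, 0.03, 0.01 and 0.04 for Mdm2, Ccng1, Bax and Phlda3. The genes of this list other than Cdkn1a, Trp53inp1 and Bbc3 were named after their values were seen. Without Bach2KO mouse 1, 1 of 15 genes tested in the list had an unadjusted p under 0.05 by edgeR, Bbc3 (1.98, unadjusted p = 0.00359, edgeR adjusted p = 0.560). Trp53inp1 was then at 0.83 (edgeR adjusted p = 0.906), Btg2 at 0.51 (edgeR adjusted p = 0.890) and Sesn1 at 0.18 (edgeR adjusted p = 0.988). Without Bach2KO mouse 3, 5 of 16 had such a p. Bach2KO mouse 1 also stood apart over the whole table, with 26 tested genes at 1 CPM or more and at least 4 times every other library, against 0 to 5 such genes in the others.

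**Figure D4:**
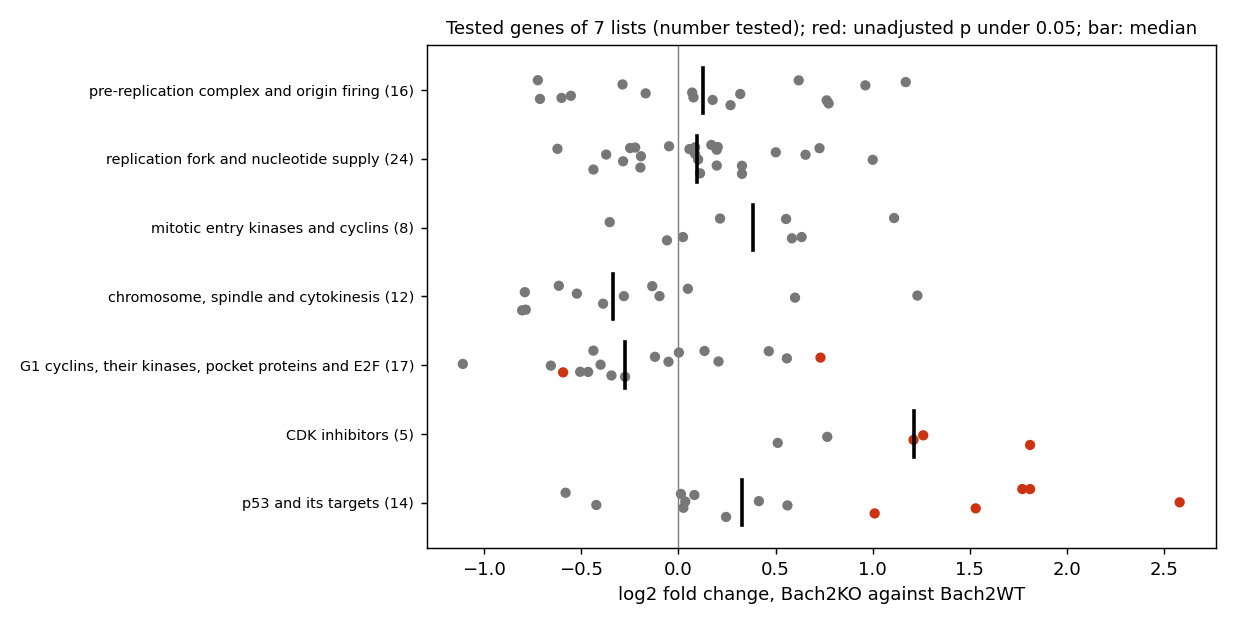
Log2 fold change of Bach2KO against Bach2WT (horizontal axis) of the tested genes of 7 lists (rows, number tested in brackets); each point is a gene, red points have an unadjusted edgeR p under 0.05 and black bars are list medians. The medians of the 2 DNA synthesis lists are at 0.13 and 0.09, and that of the CDK inhibitors is at 1.21 with 5 genes.

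Because dividing cells in the pancreas may belong to infiltrates, markers of the cell types of the tissue were summed beside these genes. In CPM, T cell markers were 3.10, 0.809, 1.88 and 1.63 in Bach2KO mice and 2.18, 0.770, 0.251 and 0.187 in Bach2WT mice, and the genotypes overlapped. The defining marker Cd3e was counted 15, 8, 11 and 11 times and 11, 0, 2 and 0 times. The T cell sum had its highest value in Bach2KO mouse 1, which held the high Cdkn1a, whereas the mitotic counts there were among the lowest. Eosinophil markers were 1.29 to 3.00 CPM in Bach2KO mice and 0.374 to 0.777 CPM in Bach2WT mice, without overlap, although their defining marker Siglecf was counted 4, 2, 0 and 0 times in Bach2KO mice and at 0 in the Bach2WT mice. The ranges of Bach2KO and Bach2WT mice overlapped for macrophage markers (24.2 to 37.7 and 17.6 to 32.6 CPM), B and plasma cell markers (122 to 174 and 153 to 168 CPM) and markers of stellate cells and fibroblasts (47.5 to 82.8 and 35.8 to 85.8 CPM). They also overlapped for duct markers (190 to 263 and 230 to 267 CPM), endothelial markers (35.9 to 74.8 and 27.3 to 39.4 CPM) and acinar markers (450000 to 507000 and 490000 to 654000 CPM). The composition factors, by which every CPM is divided, were 1.18, 1.07, 1.05 and 1.16 in Bach2KO mice and 1.10, 0.86, 0.83 and 0.83 in Bach2WT mice. Before this correction, digestive enzyme genes took 81.6%, 82.4%, 81.0% and 80.5% of counts in Bach2KO mice and 82.7%, 82.0%, 83.4% and 82.3% in Bach2WT mice. The part of this scaling in the acinar values was not tested. Acinar markers were the most abundant of these lists in every library. The part of these cell types in the levels of the cell cycle genes was not tested.

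The genes whose profile over the 8 libraries was most like that of the cell cycle genes were sought among 6762 other genes with a mean of at least 1 CPM, by Pearson r of log2 CPM. The mean of Mki67, Top2a and Cdk1 was not a profile shared by these genes, since Cdk1 had an r of -0.42 with Mki67 and -0.48 with Top2a. For this mean the most alike genes were Smo (0.917), Cldnd1 (0.908) and Il17rc (0.903). Without the 2 libraries farthest from the median, Bach2KO mouse 4 and Bach2WT mouse 3, these values were 0.819, 0.652 and 0.830. For Ccnd1 they were Pnpla7 (0.949), Mccc2 (0.942) and Rpusd4 (0.930), and without Bach2KO mouse 1 and Bach2WT mouse 2 they were 0.883, 0.870 and 0.879. For Cdkn1a they were Il22ra1 (0.954), Gramd1b (0.946) and Mlxip (0.942), and without the same pair of libraries they were 0.817, 0.865 and 0.794. Il22ra1 was at 8.0 CPM and Gramd1b at 7.32 CPM in Bach2KO mouse 1, and at most 2.78 and 2.2 CPM in the other libraries. These values are descriptions over 8 libraries, picked as the highest of all genes searched.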

How the data were processed

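Pancreatic RNA of 4 Bach2KO and 4 Bach2WT mice, separate animals per the labels, was sequenced as poly-A libraries. The submitters' processing notes name fastp, HISAT2 2.2.1, featureCounts 2.0.6 and the build mm39; the annotation is not given in the sources used here. The authors deposited 1 table with counts per gene and library, not normalized. It also holds the authors' normalized signal (counts scaled by a size factor for each library) and FPKM values, which the authors derived from the scaled signal and the gene lengths. The authors' fold changes, p-values, adjusted p-values and 2 columns of group means were not used.

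Counts were tested with edgeR 4.0.16 (R 4.3.3; TMM, filterByExpr, genotype as the only term, quasi-likelihood test, Benjamini-Hochberg adjustment over 12820 genes). Intervals (95%) come from the standard error and the degrees of freedom of that fit. Genes that failed the filter were compared by an exact permutation test of CPM over mice (70 arrangements). Log2 CPM for correlations used a prior count of 2. The fit was first tested on simulated data. The biological coefficient of variation was 0.438. Between 58.9% and 62.0% of the nonzero counts in a library were even, so that both mates of a pair may have been counted; the limit for a count of 0 (3 counts) would then be 6. Limits of this kind cover counting error only. Alternatives were DESeq2 1.42.0, DESeq2's size factors within edgeR, enzyme genes removed, other filters, sex as a covariate, a replicate block, halved counts and each library left out. The members, gene lists, marker lists and motifs were chosen with earlier results of these data known. Beside the members, the rule named the 2 tested genes with the smallest p of each list and the 3 genes most like each of 3 profiles. List genes beyond this rule, among them Ccnd2, Cdkn1b, Cdkn2d, Cdkn2a and Cdkn2b, were named after their values were seen. Promoters are RefSeq sequences of GRCm38.p6, matched by symbol, and their coordinates are not those of mm39.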

Additional observations from a re-analysis of the deposited data

Results flagged for a closer look

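The levels of 2 members in 1 library each lay far from the other libraries of their group, of 20 groups of 4 libraries that were examined by Dixon's criterion, which chance meets in about 1 of 20 groups. Cdkn1a was at 32.2 CPM in Bach2KO mouse 1 and between 1.92 and 5.02 CPM in the other Bach2KO mice. Cdk1 was at 0.28 CPM in Bach2KO mouse 4, the library with the highest total count but one, and between 0.0793 and 0.0989 CPM in the other Bach2KO mice, where it rested on 6 to 16 counts per library.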

How the results depend on the processing

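The 10 members were recomputed in 151 combinations of gene and setting, and 0 passed an adjusted p under 0.05 (lowest 0.196). The sign changed in 5 of them. Mki67 went from -0.10 to 0.16 without Bach2KO mouse 1, 0.27 without Bach2KO mouse 4 and 0.60 without Bach2WT mouse 4, Top2a from -0.62 to 0.23 without Bach2WT mouse 4, and Ccnd1 from 0.21 to -0.054 without Bach2KO mouse 3. Over all libraries left out in turn, Mki67 ranged from -0.62 to 0.60, Top2a from -1.45 to 0.23, Ccnd1 from -0.054 to 0.48, Cdk1 from 0.54 to 2.31, Ccnb2 from -3.15 to -1.06, Mcm2 from -0.94 to -0.38, Mcm5 from -1.0 to -0.41 and Pcna from 0.0072 to 0.22. Leaving out a library moved Cdkn1a between 0.01 and 2.48, and the log2 ratio of Ccnb1 between -3.53 and -1.71, with an exact permutation p of 0.0286, the smallest possible, and a ratio of -2.95 without Bach2WT mouse 2. The 12 other named list genes were recomputed in 183 combinations, with 0 changes of sign and 1 at an adjusted p under 0.05, Trp53inp1 without a filter on low counts (2.61, edgeR adjusted p = 0.0135), which made 1 list gene called in place of 0. Across the whole table, 1 gene was called by the reported fit, 80 by DESeq2 and 73 by edgeR without a filter, and 0 with at least 10 counts in every library, with sex as a covariate, with halved counts, and without any single library. List medians moved for mitotic entry genes (0.38, against -0.47 with DESeq2 and -0.43 without a filter), p53 targets (0.33, against 0.031 with DESeq2) and G1 genes (-0.28, against -0.14 with at least 10 counts in every library). Leaving out a library gave medians between -0.25 and 0.41 for mitotic entry genes, -0.43 and 0.11 for spindle genes, -0.31 and -0.13 for G1 genes, and 0.75 and 1.36 for CDK inhibitors. Filters change which genes are tested in a list, and DESeq2 was run without the filter on low counts. The cause of the other changes was not tested. Depth limited the 5 mitotic members, which together had at most 75 counts in a library.

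Mice with the same number in both groups deviated together for number 1 at most, with correlations of 0.21, -0.03, -0.04 and -0.05 for numbers 1 to 4. Both mice of a number correlated best with each other for number 1 only. The reported fit did not pair the mice, and these correlations cannot exclude a pairing. With a replicate block, 0 genes were called across the table, Cdkn1a was at 0.79 (unadjusted p = 0.313, edgeR), and no call on a member at an adjusted p under 0.05 changed; Mcm2 (-0.65) and Mcm5 (-0.75) then had unadjusted p-values of 0.0444 and 0.0476 by edgeR, with adjusted p-values of 0.633 and 0.645.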
